A study of Pan troglodytes and Macaca mulatta with 12 samples.

Results

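The 8 genes that encode the subunits of the chaperonin CCT (also called TRiC) were TCP1, CCT2, CCT3, CCT4, CCT5, CCT6A, CCT7 and CCT8, chosen by gene identifier from the 16903 genes counted. They held 49 of the 119202 counted exons. RNA was sequenced from lymphoblastoid lines, that is, from cultures of immortalised B lymphocytes. Chimpanzee lines (Pan troglodytes) came from 3 females and 3 males, rhesus macaque lines from 2 females and 4 males, with 1 library per individual, and the labels name no treatment. All were grown in the same medium. The labels give no age for any animal. The human lines named in the study design were not analysed here. Because the files do not pair identifiers with symbols, B cell markers could not be read, and the labelled cell type was not checked against them. Each gene is described in cultured lines, so the values are those of an immortalised cell and not of blood.

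CCT folds newly made proteins, above all the cytoskeletal proteins actin and tubulin. Its subunits are paralogs of one another, and the complex is a cage of paired rings in which each ring holds 1 copy of each of the 8 subunits. The subunits bind ATP and are known to differ in how they use it, and the cycle of ATP binding and hydrolysis closes and opens the cage around the client protein. A complex with a fixed copy of each subunit raises the question whether the ratios of the subunit RNAs are kept between species.

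Library totals ran from 1434241 to 4751954 counts, and the 8 subunits together held 3083 to 9477 counts in a library, or 0.157% to 0.299% of it. Chimpanzee replicate 1 had the lowest total and also stood apart in its genes of chromosome 19. The 638 tested genes of chromosome 19 deviated there by a mean of -0.58 in log2 from the average of their species. In rhesus macaque replicates 5 and 6 they deviated by -0.20 and -0.24, and in the other 9 libraries by -0.07 to 0.20. The subunits were therefore also compared without the 3 libraries with the lowest values, called here those that stood apart. In size, the -0.20 of rhesus macaque replicate 5 was no larger than the 0.20 of chimpanzee replicate 6, which was kept.

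The exons counted differed widely between subunits, and an overlap with exons of another gene was found for 0 of the 49. The sources used here do not give the build of the coordinates. TCP1 (ENSG00000120438, the alpha subunit, named for the mouse t-complex) was represented by 1 exon of 763 bases on chromosome 6, from 160119521 to 160120283. CCT8 (ENSG00000156261, theta) was likewise represented by 1 exon, of 267 bases, on chromosome 21 from 29367723 to 29367989. CCT5 (ENSG00000150753, epsilon) had 2 exons of 469 bases in all between 10303282 and 10311415 on chromosome 5, and CCT6A (ENSG00000146731, zeta) had 2 exons of 1278 bases between 56086872 and 56099176 on chromosome 7. CCT7 (ENSG00000135624, eta) had 4 exons of 747 bases in all between 73314913 and 73333655 on chromosome 2. On the same chromosome, CCT4 (ENSG00000115484, delta) had 12 exons of 1478 bases in all between 61950079 and 61965711. CCT2 (ENSG00000166226, beta) had 15 exons of 1857 bases between 68266317 and 68281624 on chromosome 12, and CCT3 (ENSG00000163468, gamma) had 12 exons of 1718 bases between 154545376 and 154574819 on chromosome 1. The same exon names and coordinates were used for both species, so a ratio between species is taken over the same exons. CCT genes have processed pseudogenes, and the sources used here do not give how reads that fit several places were counted.

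The summed RNA level of the complex overlapped between the 2 species. Summed over the 8 subunits, the chimpanzee lines held 1552 to 2238 CPM (each library's counts brought to one library size, with TMM factors) with a median of 1769, and the rhesus macaque lines held 1794 to 3166 CPM with a median of 2066. The ranges overlapped. The highest value came from rhesus macaque replicate 3, whose nearest neighbour lay at 2102 CPM. The chimpanzee level was 0.847 of the rhesus macaque level (-0.24 on the log2 scale), and 0.916 of it (-0.13) without rhesus macaque replicate 3. Without chimpanzee replicate 1 it was 0.812. This sum was described and not tested.

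Each subunit was then compared between the species with the edgeR quasi-likelihood test over all 9440 genes with enough counts, a set that included all 8 subunits. After Benjamini-Hochberg adjustment over all tested genes, with a threshold of 0.05, 1 of the 8 subunits was called, CCT6A, which was lower in chimpanzee. In the same test 48.3% of all tested genes were called, 24.7% higher and 23.6% lower in chimpanzee. A difference beyond 2-fold, tested with edgeR's glmTreat, was called for 0 of the 8 subunits and for 17.3% of all tested genes. None of the 8 had an unadjusted p under 0.05 in that test, the lowest being 0.672 for CCT6A. For 0 of the 8 did all lines of one species lie above all lines of the other in CPM, which was the case for 27.1% of tested genes. The absolute log2 fold changes of the subunits ran from 0.05 to 0.68, whereas the median over all tested genes was 0.71 and that over the 2704 genes averaging 100 CPM or more was 0.60.

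**Figure D1:**
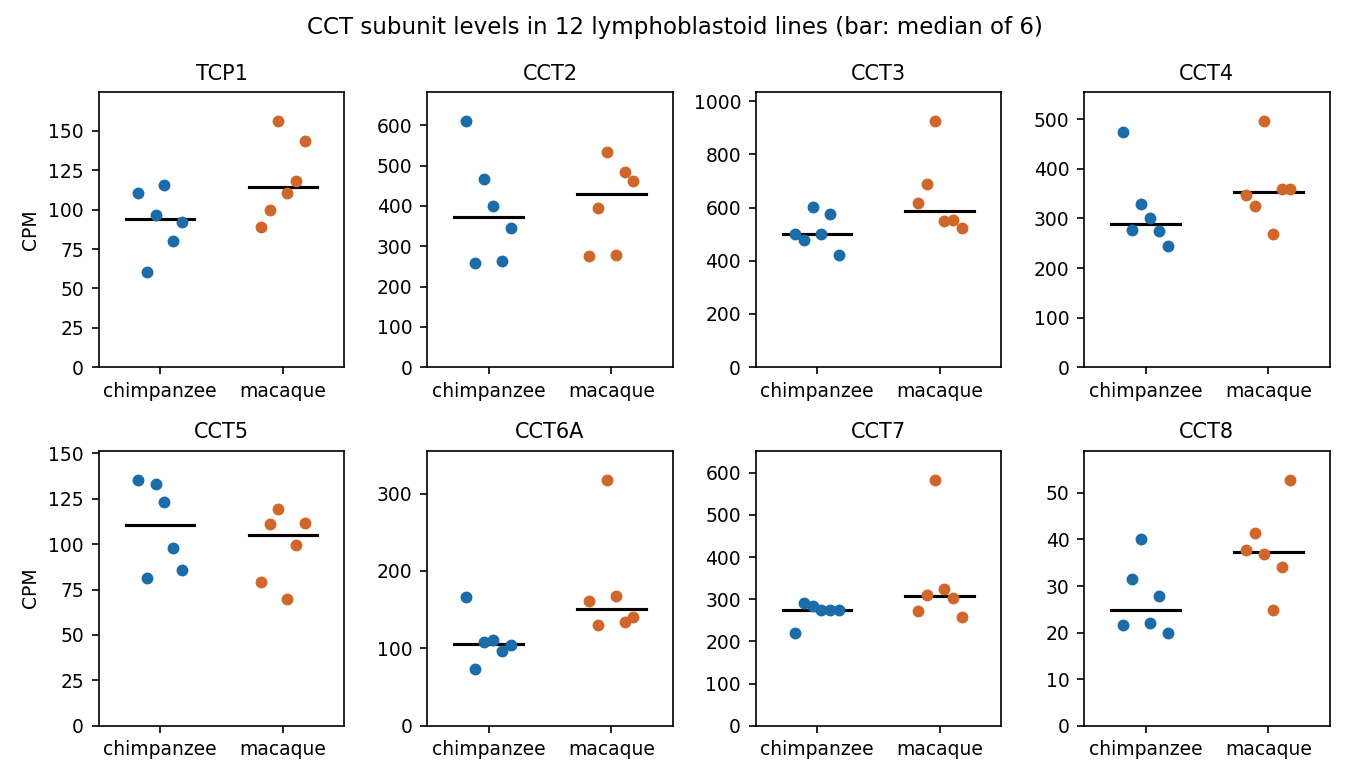
CPM of each CCT subunit in the 6 chimpanzee lines (blue) and 6 rhesus macaque lines (orange), 1 point per line, with a bar at the median and axes that start at 0. The groups overlap for all 8 subunits, and rhesus macaque replicate 3 is the highest point for CCT6A at 318 CPM and for CCT7 at 583 CPM.

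CCT6A, which has a testis-enriched paralog in CCT6B, held 73.0 to 167 CPM in chimpanzee with a median of 106, and 130 to 318 CPM in rhesus macaque with a median of 151. The ranges met only through chimpanzee replicate 1, the library at 167 CPM, since the next chimpanzee line lay at 110 CPM, below every rhesus macaque line. The log2 fold change, chimpanzee minus rhesus macaque, was -0.68 (SE 0.25, 95% interval -1.22 to -0.13, edgeR adjusted p = 0.0398), or 0.626 of the rhesus macaque level. The call lay close to the threshold. It was held in 6 of the 12 fits that each left out 1 library. It was lost, at log2 fold changes near the one above, without chimpanzee replicate 2 (-0.60, adjusted p = 0.0710), 3 (-0.68, 0.0581), 4 (-0.69, 0.0565), 5 (-0.65, 0.0609) or 6 (-0.67, 0.0574). It was also lost without rhesus macaque replicate 3, where the log2 fold change was -0.43 (adjusted p = 0.0969). Without the 3 libraries that stood apart it was -0.99 (adjusted p = 0.00951), in a fit that called 49.2% of tested genes. With sex as a second term it was -0.64 (adjusted p = 0.0636), where 47.0% of tested genes were called. The larger of its 2 exons, of 977 bases, gave -0.90 on its own and the smaller, of 301 bases, gave -0.39 (differences of mean log2 CPM). In chimpanzee replicate 1 the larger exon held 223 of the 239 CCT6A counts, or 93.3%, the highest share of the chimpanzee lines.

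CCT8, whose gene lies on chromosome 21, had the next largest difference and by far the fewest counts, with 31 to 107 counts in a chimpanzee library and 62 to 244 in a rhesus macaque library. It held 19.8 to 40.2 CPM in chimpanzee with a median of 24.9, and 24.9 to 52.8 CPM in rhesus macaque with a median of 37.4. Chimpanzee replicates 2, 3 and 5, at 31.6, 40.2 and 27.8 CPM, lay above the lowest rhesus macaque line. The log2 fold change was -0.48 (SE 0.24, upper 95% bound 0.03, adjusted p = 0.112). Without chimpanzee replicate 3 it was -0.64 and passed the threshold (adjusted p = 0.0479), where 44.3% of tested genes did. It was -0.33 (adjusted p = 0.338) without the 3 libraries that stood apart.

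The other 6 subunits did not pass the test. TCP1 held 60.3 to 116 CPM in chimpanzee (median 94.4) and 89.1 to 156 CPM in rhesus macaque (median 114). The ranges overlapped between 89.1 and 116 CPM, with a log2 fold change of -0.37 (SE 0.20, adjusted p = 0.144). CCT3, the most counted of the 8, held 421 to 603 CPM in chimpanzee (median 500.2) and 522 to 923 CPM in rhesus macaque (median 585). Its fold change was -0.32 (SE 0.18, adjusted p = 0.144), and rhesus macaque replicate 3 was again the highest line. The log2 fold change of CCT3 was -0.44 (adjusted p = 0.0796) without the 3 libraries that stood apart.

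CCT7 was the most even subunit across the chimpanzee lines, at 220 to 292 CPM with a median of 274, where 5 lines lay within 274 to 292 CPM and chimpanzee replicate 1 alone was lower. In rhesus macaque it held 257 to 583 CPM with a median of 307. The fold change was -0.34 (SE 0.20, adjusted p = 0.178), and -0.13 (adjusted p = 0.479) without rhesus macaque replicate 3. It was -0.42 (adjusted p = 0.133) without the 3 libraries that stood apart. Rhesus macaque replicate 3 was the highest rhesus macaque line for TCP1, CCT2, CCT3, CCT4, CCT5, CCT6A and CCT7.

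The smallest differences were those of CCT4, CCT5 and CCT2. CCT4, which like CCT5 can form rings of its own kind when made alone in bacteria, held 244 to 474 CPM in chimpanzee (median 288) and 269 to 496 CPM in rhesus macaque (median 353), with a log2 fold change of -0.18 (SE 0.20, adjusted p = 0.462). The estimate for CCT4 ran from -0.34 without chimpanzee replicate 1 to -0.08 without rhesus macaque replicate 3. CCT5 was the only subunit with a positive estimate, at 81.2 to 135 CPM in chimpanzee (median 110) and 69.8 to 119 CPM in rhesus macaque (median 105), a log2 fold change of 0.15 (SE 0.20, interval -0.28 to 0.58, adjusted p = 0.555), which ran from 0.04 to 0.21 when each library was left out in turn. CCT2 held 259 to 610 CPM in chimpanzee (median 372) and 276 to 534 CPM in rhesus macaque (median 429), with a log2 fold change of -0.05 (SE 0.25, interval -0.58 to 0.47, adjusted p = 0.875). It was also the most variable subunit among the chimpanzee lines, from chimpanzee replicate 2 at the low end to chimpanzee replicate 1 at the high end.

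To ask about ratios and not levels, the same edgeR test over all 9440 genes was fitted with each library scaled to its summed subunit count, so that a log2 fold change is that of a gene relative to the complex. On this scale 0 of the 8 subunits were called by edgeR, and 0 had an unadjusted p under 0.05, while 44.7% of all tested genes were called. The scale moved the median log2 fold change of all tested genes from 0.04 to 0.27, and the called genes split into 29.4% of tested genes higher and 15.2% lower in chimpanzee. Each subunit is part of its own scale, so its difference is understated in proportion to its share of the sum. Mean shares in chimpanzee and rhesus macaque were 28.4% and 29.5% for CCT3, and 20.9% and 18.6% for CCT2. CCT4 held 17.1% and 16.6%, and CCT7 15.1% and 15.5%. Smaller shares were those of CCT6A (5.93% and 7.90%), CCT5 (5.93% and 4.56%), TCP1 (5.06% and 5.54%) and CCT8 (1.51% and 1.79%). The sizes of these differences are therefore not fully comparable between subunits.

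The largest shifts within the complex were in opposite directions. CCT5 was 0.38 higher in chimpanzee relative to the complex (SE 0.18, interval -0.00 to 0.76, unadjusted p = 0.0524, adjusted p = 0.0995), and CCT6A was 0.41 lower (a log2 fold change of -0.41, SE 0.20, interval -0.83 to 0.01, unadjusted p = 0.0544, adjusted p = 0.103). Without the 3 libraries that stood apart, CCT6A passed the test at -0.60 (adjusted p = 0.0419), and it was the 1 subunit called there, beside 43.6% of 9809 tested genes. CCT8 lay at -0.25 (interval -0.82 to 0.32), CCT2 at 0.17 (-0.27 to 0.60) and TCP1 at -0.13 (-0.54 to 0.28). The remaining members were near 0, with CCT3 at -0.06 (-0.44 to 0.32), CCT4 at 0.05 (-0.31 to 0.40) and CCT7 at -0.03 (-0.45 to 0.39). Without the 3 libraries that stood apart, CCT8 lay at -0.015 and TCP1 at -0.018. Leaving out 1 library at a time, CCT8 ran from -0.35 to -0.11. A missed threshold does not show that the ratios are the same, and the intervals reached as far as -0.83 for CCT6A and 0.76 for CCT5. When the most counted exon of every gene was dropped at once, which also changed the scale, CCT5 lay at -0.06 and CCT6A at -0.20 relative to the complex, and the cause was not tested. That left CCT5 with 1 exon holding 502 of its 3446 counts, at 12 to 112 counts in a library. CCT6A was left with 1 exon holding 1364 of its 4598 counts. TCP1 and CCT8 could not be fitted there because they have 1 exon each.

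**Figure D2:**
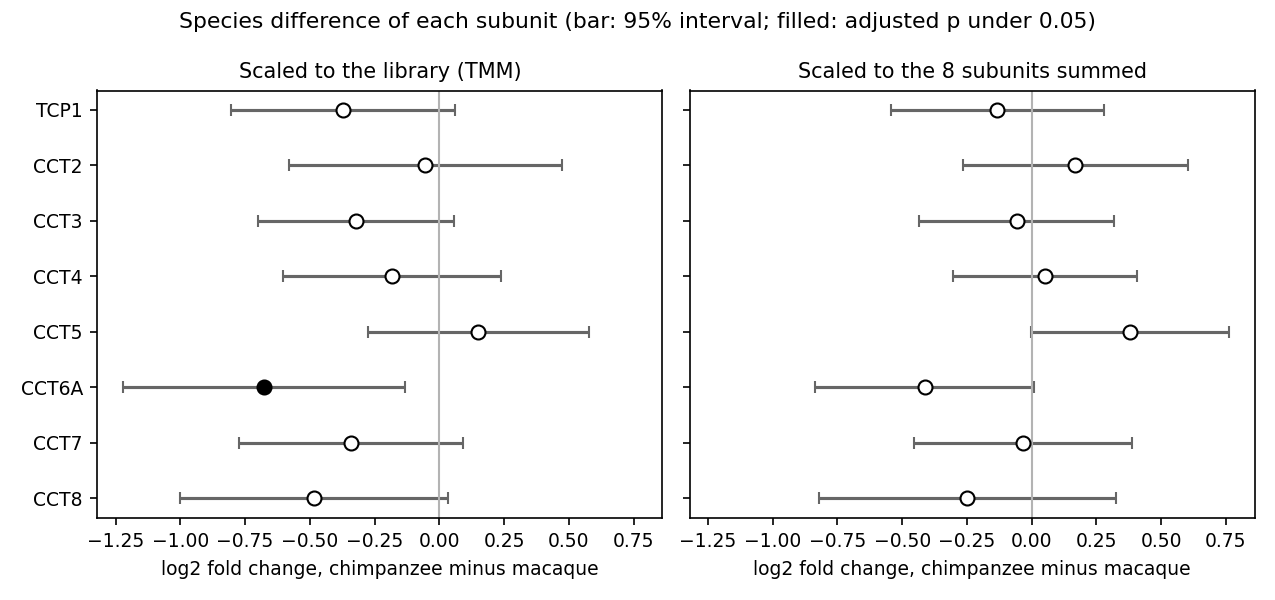
Log2 fold change of each subunit, chimpanzee minus rhesus macaque, scaled to the whole library on the left and to the summed 8 subunits on the right, with bars for the 95% interval and a filled point for an adjusted p under 0.05. CCT6A on the left, at -0.68, is the 1 filled point, and on the right CCT5 at 0.38 and CCT6A at -0.41 lie farthest from 0.

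The ratios of the 28 pairs of subunits overlapped between the species. For each pair the log2 ratio of counts per kilobase of counted exon was taken in each library, after adding 0.5 counts. In 0 of the 28 pairs did all lines of one species lie above all lines of the other. Of all pairs of tested genes, 29.2% were so separated, and of pairs of genes averaging 100 CPM or more, 30.5%. The species means of the pair ratios differed by a median of 0.25 on the log2 scale, against 1.20 over all pairs of tested genes and 0.966 over pairs of at least 100 CPM. In 24 of the 28 pairs (85.7%) the difference was within 0.5, compared with 23.1% of all pairs and 27.99% of the pairs of at least 100 CPM. The pairs share genes and are not independent, so they were not tested.

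The 4 pairs beyond 0.5 all held CCT5 or CCT6A. The log2 ratio of CCT5 to CCT6A ran from 1.146 to 1.74 in chimpanzee (median 1.53) and from 0.03 to 1.22 in rhesus macaque (median 0.72), so that the ranges met only at their ends. The means differed by 0.79, and by 0.66 to 0.90 when each library was left out in turn. Without the most counted exon of each gene they differed by 0.30 (SD 1.24 in chimpanzee and 0.70 in rhesus macaque). The ratio of CCT5 to CCT8 differed by 0.64, from a mean of 1.20 (SD 0.48) in chimpanzee to 0.56 (SD 0.25) in rhesus macaque, with 6 lines each. For CCT2 to CCT6A the means were 1.27 (SD 0.21) and 0.70 (SD 0.54), a difference of 0.57. The ratio of TCP1 to CCT5 had means of -0.94 (SD 0.21) and -0.42 (SD 0.27), a difference of -0.52. At the other end, CCT3 to CCT7 differed by -0.02, with means of -0.28 (SD 0.22) in chimpanzee and -0.26 (SD 0.21) in rhesus macaque. TCP1 to CCT3 differed by -0.07 and TCP1 to CCT7 by -0.08.

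Which pairs were separated depended on single libraries. Without chimpanzee replicate 1, 1 of the 28 pairs was separated, CCT6A to CCT7 at -0.54, where 31.8% of all pairs of tested genes were. Without chimpanzee replicate 2 the 1 separated pair was CCT5 to CCT8 (0.77), beside 30.6% of all pairs, and without chimpanzee replicate 6 it was CCT4 to CCT6A (0.51), beside 32.1%. Without rhesus macaque replicate 2 there were 2 such pairs, TCP1 to CCT5 (-0.61) and CCT5 to CCT6A (0.90), beside 30.0% of all pairs. Leaving out rhesus macaque replicate 3 gave 0 separated pairs, beside 31.6% of all pairs. Without the 3 libraries that stood apart 3 pairs were separated, TCP1 to CCT6A (0.55), CCT3 to CCT5 (-0.55) and CCT6A to CCT7 (-0.56), where 40.8% of all pairs were. CCT5 to CCT6A differed by 1.05 there.

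**Figure D3:**
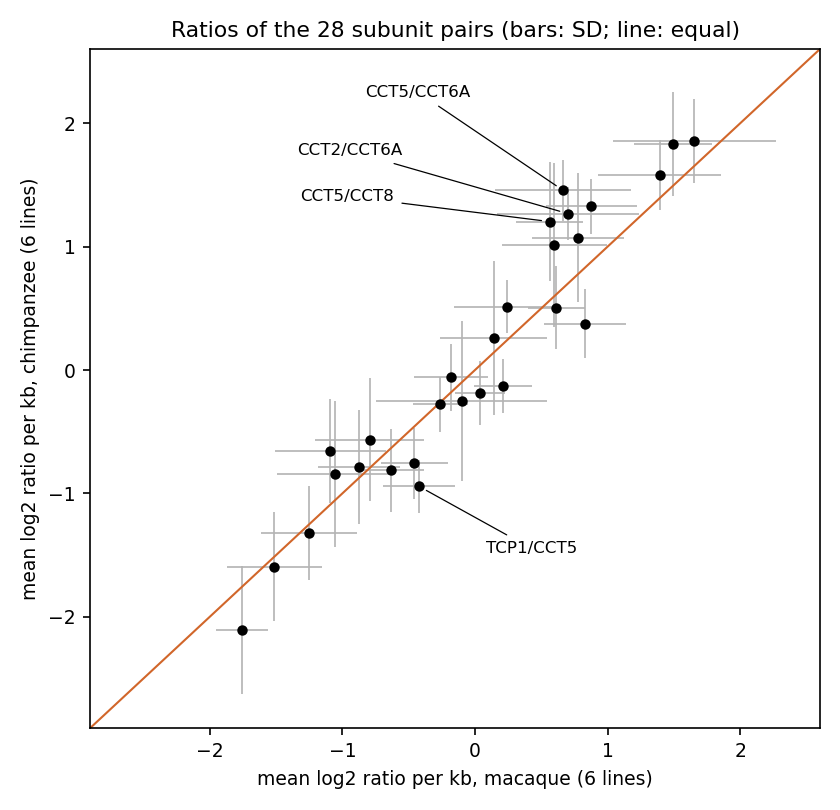
Mean log2 ratio of each of the 28 subunit pairs in the 6 chimpanzee lines (vertical) against the 6 rhesus macaque lines (horizontal), per kilobase of counted exon, with bars for the SD and a line where the means are equal. The 4 named pairs are those that differ by more than 0.5, and CCT5/CCT6A, at 0.79, is farthest from the line.

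The order of the subunits was much the same in both species. Per kilobase of counted exon, CCT7 led with a mean of 361 CPM per kilobase (SD 33.7, n = 6) in chimpanzee and 457 (SD 162, n = 6) in rhesus macaque, and it was first in 11 of the 12 libraries. It lay above CCT3 in 6 of 6 lines of each species. CCT3 followed, at 299 (SD 38.6) and 374 (SD 87.4), and was second in 11 of the 12. Next came CCT5, CCT4 and CCT2, whose neighbours in the order did not differ beyond their spread. In chimpanzee they lay at 233 (SD 51.4), 214 (SD 55.5) and 210.4 (SD 71.9) CPM per kilobase, and in rhesus macaque at 209.7 (SD 42.0), 243 (SD 50.6) and 218 (SD 58.4).

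TCP1, CCT8 and CCT6A formed the lower group in all 12 libraries. Their means were 121 (SD 26.7), 102 (SD 29.0) and 85.8 (SD 24.3) CPM per kilobase in chimpanzee, and 157 (SD 33.8), 142 (SD 34.3) and 137 (SD 55.8) in rhesus macaque, and their order among themselves changed from line to line. Chimpanzee replicate 1 was the 1 library with another leader, CCT2, followed by CCT4. These levels rest on different parts of each transcript, from a single exon to 15, so the order of 2 subunits within a species cannot be told apart from which exons were counted, whereas the species ratio of a subunit uses the same exons on both sides.

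Between lines of one species, subunits were compared as a level and as a ratio to the rest of the complex, and which was steadier depended on single libraries. The SD of a subunit's own log2 CPM between lines had a median of 0.34 in chimpanzee and 0.33 in rhesus macaque. The SD of its log2 ratio to the summed other 7 subunits had a median of 0.27 and 0.25. The ratio had the smaller SD for 5 of 8 subunits in chimpanzee and 7 of 8 in rhesus macaque, where 35.1% and 24.1% of tested genes were steadier as a ratio to the complex than as a level. The median SD over tested genes was 0.49 and 0.45 for the level and 0.54 and 0.54 for the ratio. Genes averaging 100 CPM or more had medians of 0.41 and 0.37 for the level and 0.47 and 0.46 for the ratio.

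CCT4 had the steadiest ratio in rhesus macaque, with an SD of 0.14 against 0.29 for its level, and CCT5 in chimpanzee, with 0.15 against 0.33. CCT8 was less steady as a ratio in both species (0.44 against 0.39 in chimpanzee, 0.42 against 0.36 in rhesus macaque). Counting alone gives CCT8 an SD of 0.18 in chimpanzee and 0.15 in rhesus macaque. CCT7 and CCT3 in chimpanzee were also less steady as ratios, at 0.38 against 0.14 and 0.29 against 0.19. Leaving out chimpanzee replicate 1 brought the chimpanzee median of the ratio SD to 0.21, against 0.28 for the level, with 7 of 8 subunits steadier as a ratio and 33.3% of tested genes. In rhesus macaque the order of the medians turned without replicate 3, the line with the highest summed complex. There the median SD was 0.25 for the ratio and 0.22 for the level, and 5 of 8 subunits were steadier as a ratio, beside 37.0% of tested genes. Without rhesus macaque replicates 5 and 6 the medians were 0.21 for the ratio and 0.37 for the level over the remaining 4 lines, with 7 of 8 subunits and 24.6% of tested genes steadier as a ratio.

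**Figure D4:**
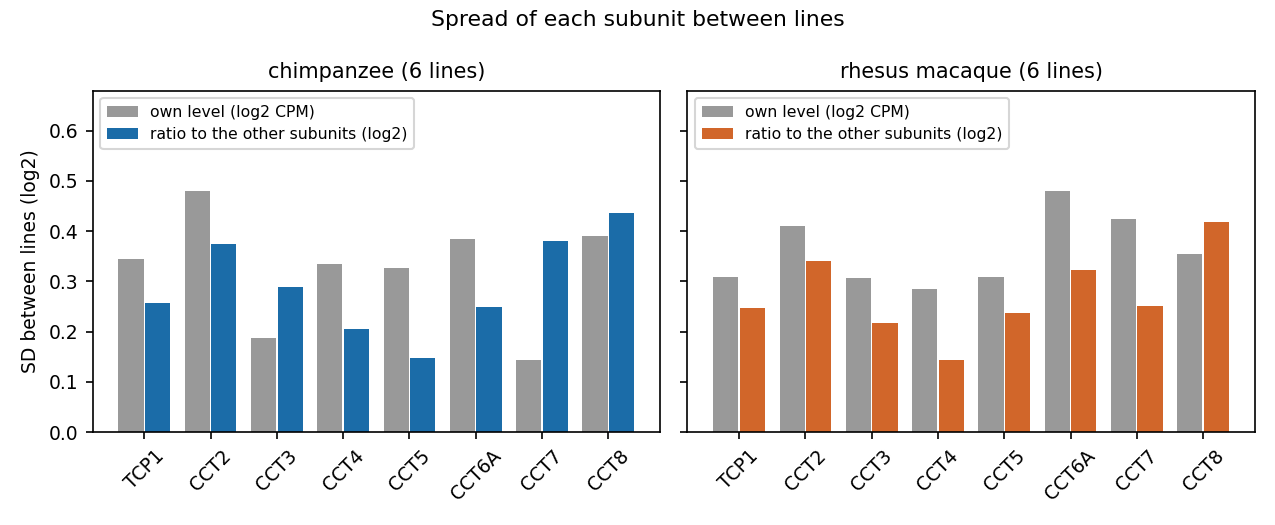
SD between the 6 lines of each species of a subunit's own log2 CPM (grey) and of its log2 ratio to the summed other 7 subunits (coloured), on axes that start at 0. The coloured bar is the shorter one for 5 of 8 subunits in chimpanzee and for 7 of 8 in rhesus macaque, and CCT8 has the taller coloured bar in both.

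Over all 12 libraries, both species included, CCT4 followed the complex most closely, with an SD of its log2 ratio to the other subunits of 0.17, which was place 10 among the 9440 tested genes. CCT3 (0.25, place 65), TCP1 (0.25, place 71), CCT5 (0.28, place 145) and CCT7 (0.31, place 249) followed. CCT6A took place 494, CCT2 place 513 and CCT8, at 0.43, place 1190. The median over tested genes was 0.73. The measure is taken over both species, so it holds species and line differences together. The non-members closest to the summed complex were ENSG00000185627 on chromosome 11 (226981 to 241936, SD 0.12) and ENSG00000169180 on chromosome 16 (28016817 to 28088731, SD 0.13). In the 6 lines of each species, the first held 106 ± 17.0 CPM (SD) in chimpanzee and 124 ± 31.0 in rhesus macaque, and the second held 268 ± 44.2 and 324 ± 51.6 CPM. Neither passed the species test (edgeR adjusted p = 0.339 and 0.182).

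The summed counts hid differences between exons of the same subunit. Exon usage, the share of a gene's counts that falls on an exon, was tested with edgeR's diffSpliceDGE on the 6 subunits with more than 1 exon. With the Simes method per gene, 1 of the 6 was called, CCT7 (adjusted p = 0.000618), where 4.27% of 9970 genes were called. Exon 1 of CCT7, 108 bases from 73314913 to 73315020 on chromosome 2, held 85 counts in the chimpanzee lines and 14 in the rhesus macaque lines. By line these were 2, 9, 11, 6, 11 and 46 counts in chimpanzee and 2, 2, 1, 4, 1 and 4 in rhesus macaque, so that chimpanzee replicate 6 held more than all other chimpanzee lines together. The exon took 0.633% to 3.29% of a chimpanzee line's CCT7 counts (median 1.36%) and 0.0855% to 0.447% of a rhesus macaque line's (median 0.327%), with no overlap. Its usage was 1.89 higher on the log2 scale in chimpanzee (exon-level adjusted p = 0.000824), and 0.852% of all tested exons passed at the exon level. The CCT7 call held in all 12 fits that left out a library. It was weakest without chimpanzee replicate 6 (Simes adjusted p = 0.0306), where the usage difference of exon 1 was 1.58 (adjusted p = 0.0366). Without the 3 libraries that stood apart the Simes adjusted p was 0.00622, and 4.58% of genes were called.

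Exon 2 of CCT7 had more counts and the same direction. It held 1050 and 718 counts and took 17.8% to 25.9% of CCT7 counts in chimpanzee (median 25.1%) and 8.73% to 15.5% in rhesus macaque (median 12.7%), again without overlap, but its usage difference of 0.68 did not pass the test over all exons (adjusted p = 0.198). Exon 4, the last of the 4, held most of the gene's counts, with a median share of 51.6% in chimpanzee and 65.1% in rhesus macaque (usage -0.22, adjusted p = 0.895). For CCT7, then, the mean log2 CPM of the first 2 exons lay 1.99 and 0.63 higher in chimpanzee and that of the last 2 at -0.32 and -0.59, and the gene's sum lay at -0.34. Exon shares were without overlap for 2 of 4 exons in CCT7, 3 of 15 in CCT2, 1 of 12 in CCT3 and 1 of 12 in CCT4. In CCT5 and CCT6A this held for 0 of 2 exons each. The share of all counted exons without such overlap was not computed, so these counts have no background and cannot be read as particular to the subunits.

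In CCT2, CCT3 and CCT4, the exons differed in sign as well, although the Simes method called 0 of these 3 genes (adjusted p = 0.347, 0.352 and 0.356). The gene-level F test, the alternative to Simes, called CCT2 (adjusted p = 0.0367), CCT3 (0.000454) and CCT7 (2.91e-06), where 16.8% of genes were called. In CCT2, the mean log2 CPM of exon 7 lay 1.04 higher in chimpanzee, and exons 13, 14 and 15 lay at -0.51, -0.65 and -0.84. Exon 8 of CCT2 held a mean of 20.8 CPM in chimpanzee lines and 9.94 in rhesus macaque lines. It took 3.80% to 6.18% of a chimpanzee line's CCT2 counts (median 5.38%) and 0.885% to 3.66% of a rhesus macaque line's (median 2.51%), with no overlap, but its usage did not pass the test (0.75, adjusted p = 0.178). In CCT3, exons 1 to 3 lay at -0.81, -0.76 and -0.65, exons 6 to 10 between 0.13 and 0.62, and exons 11 and 12 at -0.64 and -0.62. In CCT4, exons 1 to 3 lay at -1.02, -0.71 and -0.62, exon 5 at 1.45, and exons 10 to 12 at -0.65, -0.25 and 1.02. Exons 5 and 12 of CCT4 had few counts, 142 and 51 over the chimpanzee lines and 83 and 34 over the rhesus macaque lines. They were seen in 11 and 10 of the 12 libraries. As background, the coordinates of CCT2 and CCT7 rise in the direction of transcription and those of CCT3 and CCT4 fall, so that the estimates of the exons nearest the 3′ end were below 0 in all 4 genes. The log2 fold changes of these 4 whole genes were below 0 as well. Toward the other end, so were exons 11 and 12 of CCT3 and exons 10 and 11 of CCT4. Chimpanzee replicates 2 and 5 differed from the other chimpanzee lines in some exons. Exon 15 of CCT2 had 19 and 20 counts there, against 83 to 239 in the other chimpanzee lines. For exon 1 of CCT4 these were 10 and 10, against 47 to 92, and for exon 8 they were 160 and 163, against 54 to 97. The share of the exon nearest the 3′ end overlapped between the species in all 4 genes. The estimates were not computed without these 2 lines. By rising coordinate, the 2 exons of CCT5 lay at -0.09 and 0.18 and those of CCT6A at -0.39 and -0.90. Whether exons near the 3′ end differ between the species over all genes was not tested, since the files carry no strand and 0 identifiers matched the annotation tables.

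The same contrast was summarised after seeing these values, as the share of a gene's counts on its higher-coordinate exons. These were the last 7 exons of CCT2, whose exon 8 is the middle one, and the upper 6 of CCT3 and CCT4 and 2 of CCT7. The share was 56.8% ± 3.13 in chimpanzee and 69.3% ± 6.31 in rhesus macaque for CCT2, and 74.4% ± 2.22 and 86.9% ± 2.46 for CCT7 (SD, n = 6 each). For CCT3 it was 27.6% ± 1.95 and 21.9% ± 3.92, and for CCT4 46.3% ± 7.34 and 34.8% ± 4.91. The lines of the species did not overlap for CCT7 and did overlap for the other 3. No test was made of this share, and it was not computed over all genes. Its part in the level differences of the subunits was not tested. Among subunits counted on few exons, the CCT6A share on its 977-base exon had a median of 62.2% in chimpanzee and 76.6% in rhesus macaque. That share ran from 42.3% to 93.3% in chimpanzee, which enclosed the 58.0% to 79.6% of rhesus macaque. The usage of that exon did not pass the diffSpliceDGE test (-0.12, adjusted p = 0.971). The CCT5 share on its second exon had medians of 85.6% and 85.2%. Without the most counted exon of each gene, the CCT6A species difference was -0.40 (adjusted p = 0.315) and no longer passed, where 46.5% of tested genes did.

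**Figure D5:**
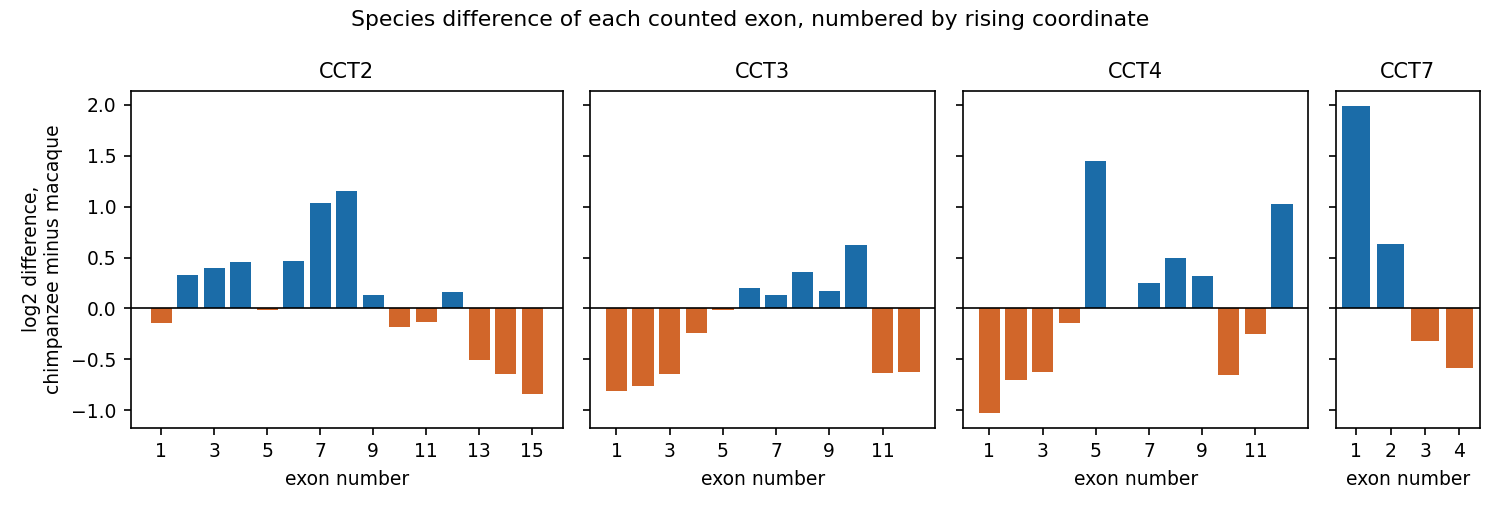
Difference of mean log2 CPM, chimpanzee minus rhesus macaque, of each counted exon of the 4 subunits with 4 or more exons, numbered by rising coordinate, with blue bars for values above 0 and orange bars for values below 0. CCT7 goes from 1.99 at exon 1 to -0.59 at exon 4. Bars are differences of means and show no spread between lines. In CCT4 the lowest bar is exon 1 at -1.02 and the highest is exon 5 at 1.45. The share of CCT4 counts on exon 1 overlapped, at 1.46% to 7.81% in chimpanzee and 3.72% to 13.6% in rhesus macaque. Exons 10 to 12 of CCT4 are at -0.65, -0.25 and 1.02, and its exons 5 and 12 had few counts.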

How the data were processed

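Total RNA from cultured lymphoblastoid lines was extracted with the Qiagen RNeasy Mini kit and sequenced on an Illumina GAII, per the labels' protocols. The authors deposited raw counts per exon, 1 file per library. The sources used here name no aligner, counter or genome build, and the kit steps described mark no strand. Exons missing from a file counted as 0, and exon counts were summed per gene.

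Of 16903 identifiers, 0 matched the gene name table and 0 the RefSeq table. Symbols of the 8 subunits came from the definition of the set, so lists of partner proteins and cell type markers could not be run. No sequence of a subunit was used. The members, lists and named genes (all 8 subunits, and the first 2 other genes by likeness) were chosen with earlier results of these data known.

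The species test was edgeR 4.0.16 (limma 3.58.1, R 4.3.3) glmQLFit and glmQLFTest with TMM normalisation and the default filter (minimum count 10, minimum total 15, in 6 libraries). CPM were computed from the deposited counts. SEs were derived from the F statistic, with Benjamini-Hochberg adjustment of p-values. The same fit was repeated with library size set to the summed subunit count. Exon usage was fitted with diffSpliceDGE on exons that reached 10 counts in total. The scripts were tested on simulated counts. Libraries of a species differed beyond sampling noise (lowest chi-square per degree of freedom 14.3). Alternatives were DESeq2 1.42.0, other normalisations, scales, filters and exon sets, a sex term, males only and leaving out libraries. The last additions, made after seeing the data, were the 2-fold test, exons that reached 50 counts, omission of each library for pair ratios and of rhesus macaque replicate 3 for steadiness, and omission of the 3 libraries that stood apart for exon usage, pair ratios and steadiness. Counts carry no molecular identifiers, so counting SDs cover counting error only.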

Additional observations from a re-analysis of the deposited data

Results flagged for a closer look

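Of 34 groups of 6 lines examined (each subunit's CPM and its share of the summed counts per kilobase, and the summed complex, in each species), 6 held a line whose gap to its nearest neighbour was, as a share of the group's range, above Dixon's 95% critical value for 6 samples. For independent groups chance gives about 1 in 20. These groups are not independent, since the shares and the sum reuse the counts of the subunits, so 6 of 34 cannot be set against that rate. All 6 came from 2 libraries.

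Rhesus macaque replicate 3 was isolated on the high side for CCT6A, at 317.6 CPM where the next line held 167.4 CPM, and for CCT7, at 582.8 CPM where the next held 323.6 CPM. The summed complex in that library reached 3166 CPM where the next held 2102 CPM. Chimpanzee replicate 1 was isolated for CCT4, at 473.7 CPM where the next chimpanzee line held 328.8 CPM, and CCT4 took 17.05% of the subunits summed per kilobase there where the next share was 13.1%. CCT7 was isolated on the low side in chimpanzee replicate 1, at 220.4 CPM where the next line held 273.6 CPM. Chimpanzee replicate 1 also had the lowest total count, 1434241, and its part in these values was not tested.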

How the results depend on the processing

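The count of 1 subunit called between the species became 0 when a difference beyond 2-fold was tested (17.3% of tested genes called). It became 0 as well with a sex term (47.0%), without the most counted exon of each gene (46.5%), and in males only (28.8%). In the males CCT6A lay at -0.73 (adjusted p = 0.220). The fit as reported called 48.3% of tested genes. Over the 12 fits without 1 library the count ran from 0 to 1. It stayed at 1 with DESeq2's Wald test, DESeq2 size factors, upper quartile normalisation, no filter, exons with counts in 3 or more libraries per species, and without the 3 libraries that stood apart. The exon filter kept every exon of the 8 subunits, so it left their counts unchanged and could not test their exons. Relative to the complex, the count of 0 became 1 without those 3 libraries. Some estimates changed sign. Without the most counted exon, the species difference became 0.00361 for CCT2 and -0.13 for CCT5, and the difference relative to the complex became -0.055 for CCT5 and 0.16 for CCT7. Over the 12 fits without 1 library, the CCT2 species difference ran from -0.23 to 0.030, and relative to the complex CCT3 ran from -0.12 to 0.00157, CCT4 from -0.019 to 0.083 and CCT7 from -0.10 to 0.064. For exon usage, the gene-level F test called 3 subunits and 1675 genes, where Simes called 1 and 426, and leaving out 1 library gave 260 to 504 genes. Separated pairs ran from 0 to 2 over the same omissions, and without the 3 libraries that stood apart 3 were separated. The cause of these changes was not tested. CCT8, with as few as 31 counts in a library, is the subunit most limited by depth. No paired analysis was made, since each library came from a separate individual of 1 species. The labels carry no replicate numbers, and replicates were numbered in accession order.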
